A study of Mus musculus with 16 samples.

Results

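The genes described here encode the proton pump that acidifies lysosomes, the cathepsins that work inside them, 2 lysosomal membrane proteins (Lamp1 and Lamp2), the acid lipase Lipa and the sterol carrier Npc2. They were chosen by name: all rows of the expression matrix whose symbol begins with Atp6v or Atp6ap, consists of Cts and 1 letter, or is Lamp1, Lamp2, Lipa or Npc2. This rule found 42 of 17883 genes. They comprise 11 genes of the V1 sector of the pump, 9 of the V0 sector, 2 accessory proteins, 15 cathepsins, the 4 genes Lamp1, Lamp2, Lipa and Npc2, and Atp6v1fnb, which carries a pump-like symbol but encodes no subunit.

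The series asks what METTL3, the enzyme that writes N6-methyladenosine (m6A) on mRNA, does when white fat turns beige in the cold. Adipose tissue of C57BL/6 mice aged 8 weeks gave 16 libraries in 8 groups of 2. Total RNA (input) and RNA captured with an m6A antibody came from 3 conditions, and ribosome-protected fragments (footprints) from the 2 cold conditions. WT RT mice carried METTL3 flox/flox without Cre and were untreated at room temperature. WT cold mice had the same genotype and were kept at 4 °C for 7 days, 1 mouse to a cage. Mice labelled cKO cold carried METTL3 flox/flox with Adipoq-Cre +/- and had the same cold exposure. The floxed alleles are shared by all groups, and Adipoq drives Cre in adipocytes, so the other cells of the tissue keep Mettl3. Which fat depot was taken is not given in the sources used here, and nothing says that the 2 libraries of a group came from separate mice, and a p-value here reflects nothing beyond how far these libraries differ among themselves.

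The pump is a rotary machine. Its V1 sector, on the cytosolic side, splits ATP and turns a central stalk. The V0 sector, in the membrane, holds the ring that carries protons into the lysosome, and the low pH activates the cathepsins and the acid lipase. Adipocytes express the pump and the common cathepsins, while phagocytes such as macrophages are especially rich in lysosomes, and some members mark immune cells: cathepsin S serves antigen presentation, cathepsin W belongs to cytotoxic lymphocytes, and cathepsin K and the d2 subunit of the pump are abundant in osteoclasts.

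Many lysosomal genes carry the motif of the transcription factor TFEB and its relatives near their start, and the sequences of 3 members are shown because their promoters hold that motif. Promoter windows from RefSeq (GRCm38.p6; 250 bases before the gene's start to 50 bases after it) were found for 32 of the 42 members. The letters TCACGTG, on either strand, stood in the windows of 7 members (21.9%: Atp6v0b, Atp6v0d1, Atp6v0e, Atp6v1a, Ctsa, Ctsd and Lamp1) and in 4.29% of the 27025 genes of the table. The shorter CACGTG, which lies inside that motif and so counts the same sites again, stood in 9 members (28.1%) against 8.09% of genes. The longer form, TCACGTG preceded by G and followed by AC, stood in 0 of the 32 members against 0.37% of genes. Below, capitals mark TCACGTG or its reverse complement, each sequence is written on the strand of its gene, and each lies wholly before the gene's outermost start. The Lamp1 stretch is chr8:13159059-13159158 on the plus strand and holds 4 copies of CACGTG, and the Atp6v0b stretch is chr4:117887334-117887406 on the minus strand and holds 2. The Ctsd stretch is chr7:142388013-142388077 on the minus strand and begins close to the far edge of its window.
Lamp1: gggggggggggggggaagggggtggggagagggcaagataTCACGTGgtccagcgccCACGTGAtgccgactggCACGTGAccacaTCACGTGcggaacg
Atp6v0b: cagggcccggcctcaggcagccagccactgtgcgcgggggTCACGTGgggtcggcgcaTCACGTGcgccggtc
Ctsd: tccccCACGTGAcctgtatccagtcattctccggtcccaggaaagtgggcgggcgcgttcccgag

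Recovered reads per library ran from 3895031 to 8673393 in input, from 4883129 to 6426541 in m6A and from at least 1676208 to 2461267 in footprint libraries. Mettl3, the targeted gene, was at 10.8 and 9.27 RPKM in WT RT input, 5.24 and 3.66 in WT cold, then 3.83 and 1.90 in cKO cold, where the cold genotypes overlapped. In the m6A libraries it was at 7.16 and 7.28, 4.23 and 2.69, and 5.37 and 2.33 in the same order, and in footprints at 4.60 and 4.82 in WT cold against 8.99 and 5.22 in cKO cold. These values sum the whole gene over the whole tissue, do not separate the genotypes in input and do not check a deletion in adipocytes, so the genotype is taken from the label. The library codes of WT RT belong to another series than those of the cold groups, so those 2 factors cannot be told apart, whereas both cold genotypes belong to the same series.

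In WT RT input the members summed to 1923 and 2030 RPKM (reads scaled by gene length and library size, a level per length). Ctsd, an aspartic protease that is the main lysosomal endopeptidase, led them with 342 and 381 RPKM, followed by the cysteine protease Ctsb with 218 and 236, Lamp1 with 177 and 186, and Atp6v0c, the proteolipid that forms most of the proton-carrying ring, with 138 and 136. Ctsd alone made up 18.3% of the members' summed mean level in WT RT and 32.4% in WT cold. The test took genes that reached 1 RPKM in at least 2 input libraries, which kept 36 members. The other 6 were Atp6v0a4, Atp6v1c2, Atp6v1e2, Atp6v1fnb, Ctsg and Ctsm. The first 3 are pump paralogues used mainly outside fat, with at most 2 reads in any input library, and Ctsm, which had at most 1, is one of the mouse's placental cathepsins. Ctsg is a neutrophil protease and had at most 6 reads, and Atp6v1fnb had at most 8.

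WT cold against WT RT split the set. Here and below, "in the cold" names this comparison, in which temperature and library code series cannot be told apart. Of 36 members tested in input RNA, 4 rose and 14 fell in WT cold against WT RT (limma, Benjamini-Hochberg adjusted p under 0.05 over all genes), where 6.52% of all genes tested rose and 51.2% fell (57.7% in either direction). Their median log2 difference of RPKM + 1 was -0.18, beside -0.67 over all genes. Among them, 8 members lay wholly above WT RT and 19 wholly below, against 12.3% and 70.4% of genes. In a bulk sample, fewer cells of a type and less RNA per cell cannot be told apart. The direction of the count depended on the scaling: with median-ratio scaling, which moved the median over all genes from -0.67 to -0.05, 18 members rose and 6 fell (19.1% and 20.2% of all genes). The 14 that rose with that scaling alone were Atp6v0a1, Atp6v0d1, Atp6v1b2, Atp6v1c1, Atp6v1d, Atp6v1g1, Ctsb, Ctsf, Ctsl, Ctsz, Lamp1, Lamp2, Lipa and Npc2. Calls that held under every alternative in which the gene was tested were those of Ctsd, which rose, and of Ctsw, Ctss, Ctse, Ctsh, Ctsa and Atp6v1g2, which fell. Of these, Ctse reached 1 RPKM in no input group but WT RT. The filter admitted it only through the group where it was high, so its fall was close to fixed in advance. With either WT RT library left out, Ctse does not meet that filter and was not tested. Without either WT RT library the count of calls dropped from 18 to 10.

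The libraries labelled cKO cold were higher than WT cold across the set. Of 36 members, 23 rose and 0 fell, where 23.6% of all genes rose and 2.92% fell (26.5% in either direction, limma), and the median was 0.62 beside 0.40 over all genes. Both cKO libraries lay above both WT cold libraries for 29 members and below them for 1, against 56.8% and 8.44% of genes. The rise covered 5 of 9 V1 genes tested, 5 of 8 V0 genes, both accessory genes, 8 of 13 cathepsins and 3 of the 4 remaining genes. With median-ratio scaling the median over all genes was 0.01, 6 members rose (Atp6v0d2, Atp6v0a1, Ctss, Ctsk, Ctsl and Ctsa) and Atp6v1h fell (6.09% of all genes rose, 6.95% fell). These 6 rises held under every alternative tried. The count of calls was 13 without WT cold replicate 2 or without cKO cold replicate 1, and 14 without either WT RT library, which enter through the shared estimate of the spread.

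Set directly against WT RT, the cKO cold libraries had 14 members higher and 4 lower, beside 8.38% and 24.7% of all genes (33.1% in either direction, limma), with a median of 0.44 beside -0.24. Both libraries lay above WT RT for 20 members and below for 7, against 23.6% and 50.5% of genes. Without either WT RT library the count of calls was 7 in place of 18. These 3 comparisons share libraries, so they are not independent of each other, and their values are given side by side below.

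**Figure D1:**
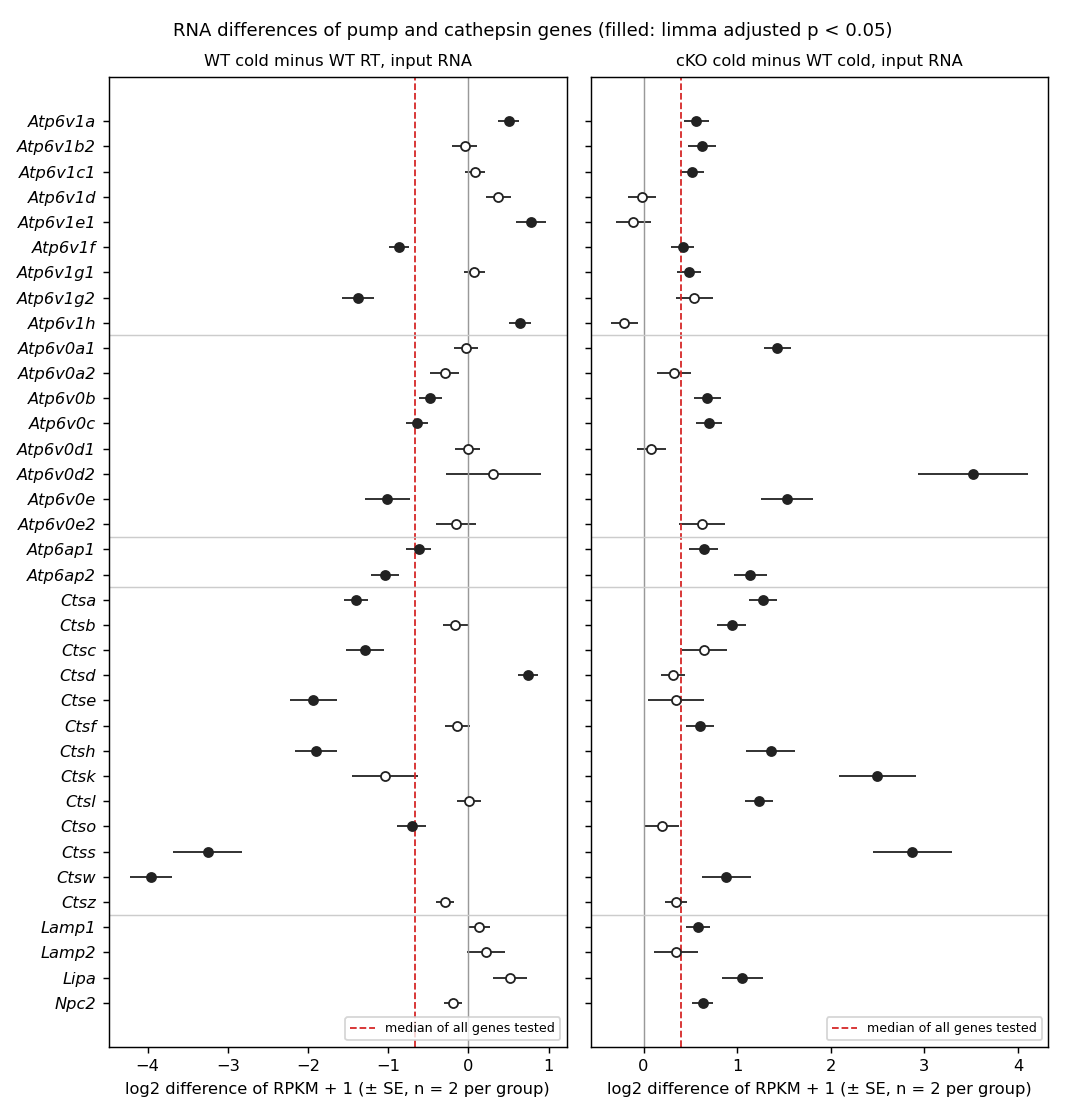
Log2 difference of RPKM + 1 in input RNA (x axis, bars ± SE, 2 libraries per group) for the 36 members tested (y axis, grouped by role: V1, V0, accessory, cathepsins, and Lamp1, Lamp2, Lipa and Npc2), WT cold minus WT RT on the left and cKO cold minus WT cold on the right. Filled points had a limma adjusted p under 0.05, and the dashed line is the median of all genes tested: -0.67 on the left, 0.40 on the right. On the right no filled point lies below 0, and Atp6v0d2, Ctss and Ctsk lie farthest out.

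In the V1 sector, both head subunits were highest in cKO cold under the authors' scaling. With median-ratio scaling 0 of 9 V1 genes rose in cKO against WT cold, and Atp6v1h fell. Atp6v1a, the catalytic A subunit, was at 19.0 and 17.5 RPKM in WT RT, 25.5 and 27.0 in WT cold, then 39.0 and 39.5 in cKO cold. No 2 groups overlapped: Atp6v1a rose by 0.50 ± 0.13 (log2, SE, n = 2 per group) in the cold with adjusted p = 0.0153 and again by 0.57 ± 0.13 in cKO with adjusted p = 0.0231 (limma). Atp6v1b2, the B subunit found in most tissues, was at 33.2 and 35.4 RPKM in WT RT, 30.3 and 36.2 in WT cold, then 56.2 and 47.4 in cKO cold. The WT groups overlapped and both cKO libraries lay above them, with a rise of 0.62 ± 0.15 over WT cold (limma adjusted p = 0.0276).

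Atp6v1e1, the main peripheral stalk subunit, was at 36.5 and 26.4 RPKM in WT RT, 56.5 and 51.7 in WT cold, then 54.6 and 45.8 in cKO cold. It rose by 0.78 ± 0.18 in the cold (limma adjusted p = 0.0109), and the cold groups overlapped, with a difference of -0.11 ± 0.18 (adjusted p = 0.669). Atp6v1h, the regulatory H subunit, was at 21.0 and 24.2 RPKM in WT RT, 33.8 and 37.7 in WT cold, then 30.6 and 31.1 in cKO cold. Atp6v1h was higher in WT cold than in WT RT by 0.64 ± 0.14 (limma adjusted p = 0.00789). Both cKO libraries lay below both WT cold libraries, with a difference of -0.20 ± 0.14 (adjusted p = 0.296). With median-ratio scaling that difference was -0.69 ± 0.16 (adjusted p = 0.0386). The stalk subunit Atp6v1d had differences of 0.37 ± 0.15 (adjusted p = 0.073) in the cold and -0.01 ± 0.15 (adjusted p = 0.952) in cKO.

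Atp6v1f, a rotor subunit, was at 52.3 and 54.6 RPKM in WT RT, 28.4 and 29.4 in WT cold, then 40.4 and 37.6 in cKO cold. Atp6v1f fell by 0.87 on the log2 scale in the cold (SE 0.12, limma adjusted p = 0.00137) and rose by 0.42 ± 0.12 in cKO (adjusted p = 0.0447), a rise that became -0.06 with median-ratio scaling (adjusted p = 0.793). Of the stalk paralogues, Atp6v1g1 was at 27.6 and 28.9 RPKM in WT RT, 31.7 and 27.9 in WT cold, then 42.2 and 42.1 in cKO cold. Its cold difference of 0.07 ± 0.13 did not pass, or was a rise of 0.80 ± 0.12 with median-ratio scaling (adjusted p = 0.003), and it rose by 0.49 ± 0.13 in cKO (limma adjusted p = 0.035).

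Atp6v1g2, a paralogue best known from brain, was scarce, with 4.65 and 4.15 RPKM in WT RT, 0.981 and 1.18 in WT cold, then 2.03 and 2.02 in cKO cold. It fell by 1.38 on the log2 scale in the cold (SE 0.20, limma adjusted p = 0.00155), and its gene overlaps Nfkbil1. Whether counting used strand is not given in the sources used here, so reads of overlapping genes may be mixed; this also bears on Ctsw, which overlaps Fibp, on Ctsa, Ctsb and Ctsz, and on Atp6v1b2. Atp6v1c1, the C subunit that joins stalk and membrane sector, was at 22.6 and 21.8 RPKM in WT RT, 23.1 and 24.0 in WT cold, then 35.3 and 33.0 in cKO cold. Both cKO libraries lay above the other 4, and the rise over WT cold was 0.52 ± 0.13 (limma adjusted p = 0.0288).

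In the V0 sector, paralogues of the same subunit took different courses. Atp6v0d1, the d subunit present in most cells, was at 47.4 and 47.9 RPKM in WT RT, 52.5 and 42.6 in WT cold, then 54.6 and 46.0 in cKO cold. All 3 groups overlapped, and neither difference passed the test (-0.01 ± 0.15 in the cold, 0.08 ± 0.15 in cKO), though with median-ratio scaling Atp6v0d1 rose in the cold by 0.73 ± 0.14 (limma adjusted p = 0.00673). Its paralogue Atp6v0d2 was at 0.102 and 1.06 RPKM in WT RT, 0.227 and 1.86 in WT cold, then 33.4 and 12.3 in cKO cold, from 5 and 21 reads in WT cold against 383 and 122 in cKO cold.

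The cKO libraries of Atp6v0d2 lay far above all 4 WT libraries, by 3.52 ± 0.59 over WT cold (limma adjusted p = 0.0101) and by 3.83 ± 0.59 over WT RT (adjusted p = 0.0041), the largest rise among the members in both comparisons. Of the summed RPKM of both d subunits, Atp6v0d2 made up 0.43% and 4.18% in WT cold against 38.0% and 21.1% in cKO cold.

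Among the a subunits, which guide protons through the membrane and set where the pump goes, Atp6v0a1 was at 27.9 and 30.1 RPKM in WT RT, 27.4 and 29.4 in WT cold, then 70.8 and 86.0 in cKO cold. The WT groups overlapped, and Atp6v0a1 rose by 1.43 ± 0.14 in cKO (limma adjusted p = 0.00407). Its paralogue Atp6v0a2, which serves Golgi and endosomes, was at 22.0 and 19.2 RPKM in WT RT, 19.3 and 14.2 in WT cold, then 20.9 and 21.1 in cKO cold. No difference of Atp6v0a2 passed the test, and the share of Atp6v0a1 in the summed RPKM of the a subunits went from 58.7% and 67.5% in WT cold to 77.1% and 80.3% in cKO cold.

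The ring proteolipids and Atp6v0e fell in the cold and rose again in cKO under the authors' scaling. With median-ratio scaling none of them was called in either comparison. Atp6v0c was at 138 and 136 RPKM in WT RT, 94.6 and 81.4 in WT cold, then 132 and 156 in cKO cold, and Atp6v0b, a second proteolipid, fell and rose likewise (-0.48 ± 0.14 and 0.68 ± 0.14). With median-ratio scaling the cold differences of Atp6v0c and Atp6v0b turned to 0.11 (adjusted p = 0.555) and 0.25 (adjusted p = 0.214). Atp6v0e, a small membrane subunit, was at 12.3 and 13.1 RPKM in WT RT, 4.69 and 7.11 in WT cold, then 24.1 and 14.5 in cKO cold. No groups of Atp6v0e overlapped in either comparison, with a fall of 1.01 on the log2 scale in the cold (SE 0.28, limma adjusted p = 0.0192) and a rise of 1.54 ± 0.28 in cKO (adjusted p = 0.0119), but these values rest on only 14 to 48 reads a library. Its paralogue Atp6v0e2 was at 2.24 and 1.34 RPKM in WT RT, 1.72 and 1.25 in WT cold, then 2.61 and 3.03 in cKO cold, and no difference passed.

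Both accessory proteins fell in the cold and rose in cKO under the authors' scaling. With median-ratio scaling neither was called in either comparison. Atp6ap1, which helps the pump assemble and mature, was at 57.0 and 56.1 RPKM in WT RT, 41.4 and 31.9 in WT cold, then 58.0 and 56.5 in cKO cold. WT cold lay below the other 2 groups, which overlapped (a fall of 0.62 on the log2 scale, SE 0.15, then a rise of 0.64 ± 0.15), and with median-ratio scaling the cold difference of Atp6ap1 turned to 0.11 (adjusted p = 0.521). Atp6ap2, also called the prorenin receptor, was at 11.8 and 11.5 RPKM in WT RT, 4.71 and 5.60 in WT cold, then 13.4 and 11.7 in cKO cold. It rose by 1.14 ± 0.18 in cKO (limma adjusted p = 0.00848) after a fall of 1.04 in the cold (SE 0.18, adjusted p = 0.00288).

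Among the cathepsins, 1 of 13 rose in the cold and 7 fell, with a median of -1.04, where the pump with its accessory proteins had 3 rises and 7 falls among 19 and a median of -0.05. The cathepsins that fell are a share near the 51.2% of all genes that fell. With median-ratio scaling 5 cathepsins rose and 5 fell, while 7 V1 genes rose and 1 fell, 2 V0 genes rose and 0 fell, and neither accessory gene was called. Ctsd went from 342 and 381 RPKM in WT RT to 608 and 605 in WT cold and to 740 and 770 in cKO cold. All groups of Ctsd stayed apart, with a rise of 0.75 ± 0.12 in the cold (limma adjusted p = 0.00279) and a difference of 0.32 ± 0.12 in cKO (adjusted p = 0.101).

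The cathepsins of immune cells went the other way in the cold. Ctss was at 105 and 129 RPKM in WT RT, 10.6 and 12.1 in WT cold, then 149 and 53.0 in cKO cold. WT cold lay far below both other groups, with a fall of 3.25 on the log2 scale (SE 0.43, limma adjusted p = 0.00106) and a rise of 2.87 ± 0.43 in cKO (adjusted p = 0.00777). Ctsw was at 14.9 and 21.8 RPKM in WT RT, 0.0929 and 0.362 in WT cold, then 1.07 and 1.45 in cKO cold.

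Ctsw had 343 reads over both WT RT libraries but 3 over both WT cold libraries, a ratio per read of 99.1 (95% exact counting interval 33.6 to 483, which covers counting error only), and 13 in cKO cold, 6.77 times WT cold (1.86 to 37.0). Its fitted fall was 3.96 on the log2 scale (SE 0.26, limma adjusted p = 0.000102), and its rise in cKO 0.88 ± 0.26 (adjusted p = 0.0476). Ctse, an aspartic protease of stomach and immune cells, had 3.52 and 2.22 RPKM in WT RT and was listed at 0 in both WT cold libraries. The cKO cold libraries held 0.625 and 0 RPKM of Ctse. With 3 reads for the whole group as the limit that 0 reads allow, its 93 reads in WT RT were at least 26.9-fold higher than in WT cold.

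Ctsh, a cysteine aminopeptidase, was at 68.9 and 77.1 RPKM in WT RT, 18.5 and 19.0 in WT cold, then 67.0 and 36.8 in cKO cold. Ctsh fell by 1.90 on the log2 scale in the cold (SE 0.26, limma adjusted p = 0.00127) and rose by 1.36 ± 0.26 in cKO (adjusted p = 0.0138). Neither this rise nor that of Ctsw was called with median-ratio scaling. Ctsc, which activates granule proteases, was at 50.01 and 55.9 RPKM in WT RT, 20.9 and 21.1 in WT cold, then 43.6 and 25.5 in cKO cold. Its fall of 1.29 in the cold passed (SE 0.24, limma adjusted p = 0.0042), and its difference of 0.65 ± 0.24 in cKO did not (adjusted p = 0.0855).

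Ctsa, a carboxypeptidase that protects lysosomal galactosidase, was at 51.4 and 53.7 RPKM in WT RT, 20.2 and 18.4 in WT cold, then 53.6 and 43.3 in cKO cold. Ctsa fell by 1.40 on the log2 scale in the cold (SE 0.15, limma adjusted p = 0.000487) and rose by 1.28 ± 0.15 in cKO (adjusted p = 0.00509), so that WT RT and cKO cold overlapped. Ctsk, the collagen-cleaving protease of osteoclasts, was at 10.3 and 11.4 RPKM in WT RT, 4.96 and 4.60 in WT cold, then 52.2 and 19.0 in cKO cold. WT cold lay below WT RT without passing the test (-1.04 ± 0.41, limma adjusted p = 0.0666), and Ctsk rose by 2.50 ± 0.41 in cKO (adjusted p = 0.00988) and by 1.46 ± 0.41 over WT RT (adjusted p = 0.0352).

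Ctsl and Ctsb, broadly expressed cysteine proteases, passed no test in the cold under the authors' scaling and rose in cKO. Ctsl was at 25.5 and 23.3 RPKM in WT RT, 23.8 and 25.2 in WT cold, then 66.2 and 52.4 in cKO cold, a rise of 1.23 ± 0.15 (limma adjusted p = 0.00545). Ctsb was at 218 and 236 RPKM in WT RT, 211 and 195 in WT cold, then 443 and 342 in cKO cold, a rise of 0.94 ± 0.16 (adjusted p = 0.00988). The cKO libraries of both genes lay above all 4 WT libraries. With median-ratio scaling Ctsl and Ctsb rose in the cold (0.73 ± 0.16 and 0.58 ± 0.16, limma adjusted p = 0.0116 and 0.026). In cKO that scaling kept the call of Ctsl but lost that of Ctsb and that of Ctsf, given next. Ctsf rose in cKO as well (0.60 ± 0.15, limma adjusted p = 0.0296), Ctso fell in the cold (by 0.71, SE 0.18, adjusted p = 0.0155) with a difference of 0.20 ± 0.18 in cKO, and Ctsz passed in neither comparison (-0.29 ± 0.12 and 0.35 ± 0.12), but its cold difference became a rise of 0.45 ± 0.13 with median-ratio scaling (adjusted p = 0.0353).

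Lamp1, a main glycoprotein of the lysosomal membrane, was at 177 and 186 RPKM in WT RT, 216 and 184 in WT cold, then 309 and 291 in cKO cold. The WT groups overlapped, and Lamp1 rose by 0.58 ± 0.13 in cKO (limma adjusted p = 0.0207). Lamp2, which also serves chaperone-mediated autophagy, was at 42.2 and 41.4 RPKM in WT RT, 49.0 and 48.4 in WT cold, then 81.6 and 47.6 in cKO cold. Only 1 of the cKO libraries stood apart, and Lamp2 passed in no RNA comparison under the authors' scaling. With median-ratio scaling Lamp2 rose over WT RT in WT cold (0.95 ± 0.24) and in cKO cold (0.81 ± 0.24; limma adjusted p = 0.0191 and 0.0432).

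Lipa, which frees fatty acids and cholesterol from lipids inside lysosomes, was at 21.6 and 23.8 RPKM in WT RT, 37.1 and 29.3 in WT cold, then 85.0 and 57.1 in cKO cold. All groups of Lipa were apart, the cold difference of 0.52 ± 0.22 missed the threshold (limma adjusted p = 0.0768), and the rise in cKO was 1.06 ± 0.22 (adjusted p = 0.0167), or 1.57 ± 0.22 over WT RT (adjusted p = 0.00272). Npc2, which hands cholesterol to the membrane, was at 78.8 and 79.0 RPKM in WT RT, 70.3 and 67.6 in WT cold, then 109 and 106 in cKO cold. The cKO libraries of Npc2 lay above the other 4, with a rise of 0.63 ± 0.11 (limma adjusted p = 0.0109). With median-ratio scaling Lamp1, Lamp2, Lipa and Npc2 were not called in cKO against WT cold, and all of them rose in WT cold against WT RT.

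**Figure D2:**
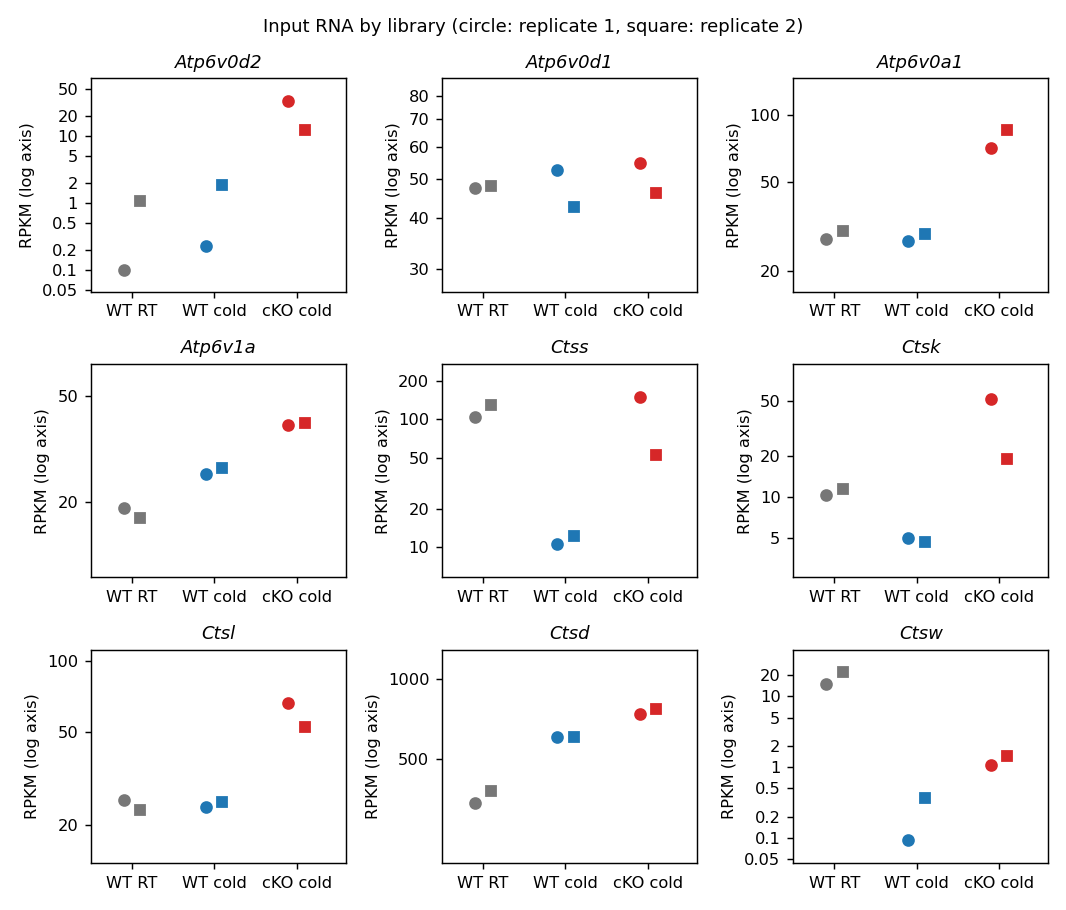
Input RNA level (y axis, RPKM on a log axis, with its own range in each panel) in the 6 input libraries (x axis: WT RT, WT cold, cKO cold; circles replicate 1, squares replicate 2) for 9 members. Atp6v0d2, Ctss and Ctsk differ by over 2.7 times between the cKO replicates (ratios 2.71, 2.81 and 2.74), Atp6v0a1 and Ctsd by much less (0.823 and 0.961), and Atp6v0d1 overlaps in all groups.

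Cell type markers were read in the same libraries, and the lists differed in whether they rose in cKO. Summed RPKM of 20 macrophage markers was 920 and 984 in WT RT, 239 and 248 in WT cold, then 1850 and 845 in cKO cold, and at most 1 of the 20 was at 0 in any input library. Of the 19 tested, 12 fell in the cold and 16 rose in cKO (8 and 13 with median-ratio scaling), among them Trem2 by 3.48 ± 0.42 and Cd68 by 3.31 ± 0.18 (limma adjusted p = 0.00511 and 0.0019). Fibroblast markers (9 of 10, or 3 with median-ratio scaling) and mast cell markers (4 of 6) rose in cKO too, where 23.6% of all genes did (3 of the mast cell markers with median-ratio scaling). Of other lists, 2 of 12 T and NK, 1 of 8 B, 2 of 7 dendritic, 2 of 11 neutrophil and 2 of 8 endothelial markers rose in cKO, shares near or below that of all genes, and 1, 0, 1, 1 and 0 with median-ratio scaling. Adipocyte markers had 3 rises and 4 falls among 20 in cKO (0 and 7 with median-ratio scaling) and 10 rises and 3 falls in the cold (14 and 0). Between the cKO replicates the macrophage sum had a ratio of 2.19, the fibroblast sum 2.13, the mast cell sum 1.61 and the B cell sum 5.11, beside ratios of Ctsh (1.82), Ctss, Ctsk and Atp6v0d2 (2.71 to 2.81). Over all members summed the ratio was 1.14, and it was 0.988 for Atp6v1a, 0.823 for Atp6v0a1, 1.26 for Ctsl and 1.24 for Ctsa. The part of these cells in the members' rise was not tested.

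Ctsk and Atp6v0d2 are well known from osteoclasts, and of 6 other osteoclast and giant cell markers tested 5 fell in the cold (2 with median-ratio scaling) and 1 rose in cKO: Dcstamp, a fusion protein, rose by 1.64 ± 0.25 (limma adjusted p = 0.00812). Their sum was 254 and 264 RPKM in WT RT, 172 and 130 in WT cold, then 180 and 195 in cKO cold, and at most 2 of the 8 in the matrix were at 0 in any input library. In the cold, lymphocyte markers nearly vanished from input: the sum of 8 B cell markers went from 705 and 662 RPKM to 0.469 and 0.609, with 5 of the 8 at 0 in each WT cold library, and that of 12 T and NK cell markers from 289 and 281 to 5.41 and 3.13, with 2 and 5 of the 12 at 0. All 12 T and NK, 8 B, 7 dendritic and 11 neutrophil markers tested fell (limma), where 51.2% of all genes did. With median-ratio scaling 9, 8, 5 and 11 of them fell, where 20.2% of all genes did. Of fibroblast, mast cell and endothelial markers, 5 of 10, 2 of 6 and 3 of 8 fell under the authors' scaling. These shares were near or below that of all genes. With median-ratio scaling 4, 0 and 0 of these markers fell, and 2 endothelial markers rose. Most B cell markers could pass the filter only through WT RT, since their sums were also low in cKO cold (5.64 and 1.10 RPKM). Their fall was therefore largely fixed in advance. Of 11 neutrophil markers, 6 were at 0 in each WT cold library, and 4 and 5 in the cKO cold libraries. How many T and NK, dendritic and neutrophil markers passed only through WT RT was not counted. The counts of falls in these lists therefore cannot be separated from the effect of the filter. The part of all these cells in the falls of Ctss, Ctsw, Ctse and Ctsh was not tested.

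Other genes of the lysosome were tested in the same fits, where 6.52% of all genes rose and 51.2% fell in the cold. In cKO 23.6% of all genes rose and 2.92% fell. Of 45 further lysosomal genes, 0 rose and 30 fell in the cold, and 28 rose and 0 fell in cKO (medians -0.67 and 0.76, beside -0.18 and 0.62 for the members and -0.67 and 0.40 over all genes). With median-ratio scaling 7 rose and 10 fell in the cold, and 9 rose and 0 fell in cKO. The largest rises in cKO included Laptm5, a lysosomal protein of blood cells (1.97 ± 0.36), the phospholipase Pla2g15 (1.91 ± 0.15) and the asparagine protease Lgmn (1.79 ± 0.26). Among 17 regulators and nutrient sensors tested, 1 rose and 5 fell in the cold (9 and 1 with median-ratio scaling), and 5 rose and 1 fell in cKO (0 and 2 with median-ratio scaling). Mitf, a relative of TFEB, rose by 1.02 ± 0.28 (limma adjusted p = 0.0384), and the kinase Mtor fell by 0.77 (SE 0.16, adjusted p = 0.0157). Tfeb itself fell by 1.49 in the cold (SE 0.21, adjusted p = 0.00141). Among members with TCACGTG in the promoter, 5 of 7 rose in cKO, beside 11 of 19 without it and 7 of 10 with no promoter in the table.

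Of the factors that assemble or regulate the pump, 1 of 10 rose in cKO (Ncoa7 by 0.77 ± 0.22) and 1 rose and 4 fell in the cold, the largest being Rogdi, which fell by 2.17 (SE 0.20). Of the receptors and enzymes that route cathepsins to lysosomes, 4 of 10 rose in cKO, led by Nagpa (1.52 ± 0.19) and Gnptab (1.15 ± 0.16), which make and finish the mannose phosphate tag, and 5 fell in the cold. Of 6 cathepsin inhibitors, 3 rose in cKO, including Cstb (1.18 ± 0.15), and 5 fell in the cold. Over all genes 23.6% rose in cKO and 51.2% fell in the cold, so the falls of assembly factors and sorting genes were near or below that share. With median-ratio scaling the assembly factors had 2 rises and 1 fall in the cold and 0 calls in cKO. The sorting genes had 3 rises and 3 falls in the cold and 2 rises in cKO, and the inhibitors 2 rises and 3 falls in the cold and 2 rises in cKO.

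The m6A libraries give, for each gene, its share of antibody-captured reads relative to input; a log2 value below 0 means a smaller share than in input, not an absence of m6A. Most members lay low on this scale in every condition. In WT RT 28 of 37 members tested were lower in m6A than in input and 0 higher, beside 34.6% and 16% of all genes (50.6% in either direction, limma), with a median of -1.002 beside -0.25. In WT cold 25 were lower and 1 higher (25.6% and 13.7% of genes, 39.3% in either direction), with a median of -0.74 beside -0.11. In cKO cold 27 were lower and 0 higher (35.2% and 11.4%, 46.6% in either direction), with a median of -0.87 beside -0.30. The same 21 members (56.8%) were lower in all 3 conditions, beside 22.0% of all genes tested. These counts changed little with scaling, but without WT cold m6A replicate 1 the WT cold count of calls went from 26 to 16. Median length was 2126 bases for the members and 2951 over all genes tested, and across the 37 members the rank correlation of length with the value ran from -0.104 to -0.047, while over all 13062 genes it ran from 0.094 to 0.11, with the opposite sign, a description over genes of the same libraries.

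In WT RT 17 of 19 pump and accessory genes were lower, with a median of -1.54, and 7 of 13 cathepsins, with a median of -0.57, a difference between roles that was not tested. Lamp1, Lamp2, Lipa and Npc2 were lower in all 3 conditions. The lowest member in WT RT was Atp6ap2, with log2 values of -2.36 and -2.73 in WT RT, -1.74 and -2.10 in WT cold, then -2.56 and -2.47 in cKO cold. In WT RT its mean of -2.54 ± 0.19 (limma adjusted p = 7.85e-06) placed it at the 0.444 percentile of all genes tested. These values of Atp6ap2 rest on only 8 to 20 reads in each m6A library, with m6A levels near the added 1 RPKM. Without that addition, m6A over input was 0.127 and 0.0769 in WT RT, against 0.15 and 0.0956 in WT cold. It was 0.107 and 0.111 in cKO cold, so the plain ratios of Atp6ap2 overlapped among the conditions.

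Atp6v1h came next in WT RT, at -2.37 and -2.55 in WT RT, -1.98 and -1.88 in WT cold, then -1.69 and -2.28 in cKO cold. The head subunit Atp6v1b2 stood at -2.08 and -2.25 in WT RT, -1.67 and -1.94 in WT cold, then -2.14 and -1.96 in cKO cold, and Atp6v1a at -1.90 and -1.80, -1.71 and -1.75, and -1.97 and -1.98 in the same order. For these 3 V1 genes no library pair lay above -1.67, under the medians of all genes. Atp6v0b was at -1.84 and -1.87 in WT RT, -1.74 and -2.14 in WT cold, then -2.41 and -2.66 in cKO cold.

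Atp6v0d1 was at -1.75 and -1.63 in WT RT, -2.14 and -1.76 in WT cold, then -2.08 and -1.53 in cKO cold, the lowest member of WT cold (-1.95 ± 0.16, limma adjusted p = 1.79e-05). Lipa was at -1.83 and -2.11, -1.69 and -1.55, and -1.90 and -1.92 in WT RT, WT cold and cKO cold, and Atp6v1c1 at -2.13 and -1.96, -1.55 and -1.49, and -1.94 and -1.97. Atp6v0e was the lowest in cKO cold (-2.56 ± 0.39, limma adjusted p = 0.000471), with -2.60 and -1.45 in WT RT, -0.993 and -1.38 in WT cold, then -2.60 and -2.52 in cKO cold. Those values of Atp6v0e rest on only 3 to 9 reads in each m6A library.

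Other subunits lay nearer to the bulk of genes. Atp6v0c lay at -0.47 ± 0.15 in WT RT, against -1.86 ± 0.16 for Atp6v0b, and Atp6v1g2 was the only member called higher without pairing under the authors' scaling (0.67 ± 0.17 in WT cold, limma adjusted p = 0.00907). That call rests on 13 and 8 input reads against 24 and 20 m6A reads, and the gene overlaps Nfkbil1. With median-ratio scaling Atp6v1e1 was called higher in cKO cold as well (0.43 ± 0.15, adjusted p = 0.0393). Ctsz (0.28 ± 0.12 in WT RT), Ctse and Ctsw were called in no condition, nor was Atp6v0d2 (-0.45 ± 0.61 in cKO cold). With pairs of input and m6A libraries kept as a block, Ctsz and Ctse became higher in WT RT (limma adjusted p = 0.0203 and 0.0223), as did Atp6v1fnb, and Ctsh lower, where this fit called 61.9% of all genes. The same paired fit called Ctsk, Ctss, Atp6v1d and Atp6v1fnb lower in WT cold (51.3% of all genes called), and in cKO cold Ctss, Ctsh and Atp6v0e2 lower and Atp6v1e1 higher (58.4%). Atp6v1fnb had 3 and 2 input against 5 and 9 m6A reads in WT RT, and 2 and 8 against 0 and 0 in WT cold. Its opposite calls rest on these few reads. Among the 45 other lysosomal genes 29 were lower and 4 higher in WT RT, so the low position was shared with them.

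**Figure D3:**
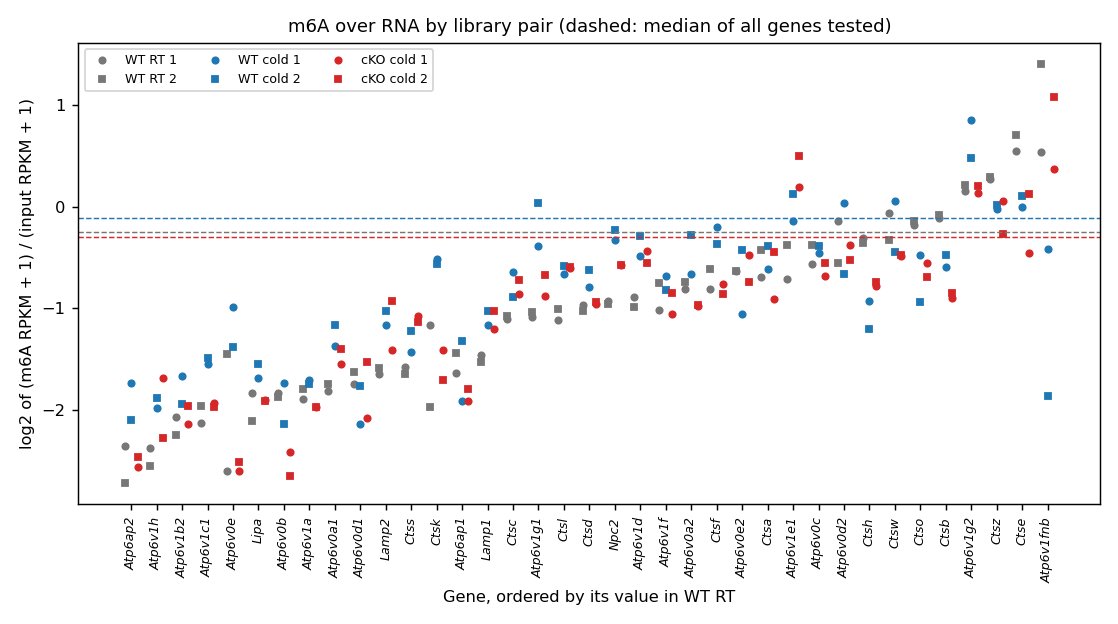
Log2 of (m6A RPKM + 1) over (input RPKM + 1) (y axis) in the 6 library pairs for the 37 members tested (x axis, ordered by the value in WT RT; circles replicate 1, squares replicate 2). Dashed lines are the medians of all genes tested in WT RT (-0.25), WT cold (-0.11) and cKO cold (-0.30), and most points of the pump genes on the left lie more than 1 below them.

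Whether m6A over RNA itself changed was tested as an interaction. For cold, 0 of 37 members were called, beside 0.0612% of all genes (8 of 13062, 0.023% higher and 0.0383% lower), and 8 members had an unadjusted p under 0.05, as had 1486 genes (11.4%). The members' median change was 0.30 beside 0.11 over all genes. With the paired fit, which called 2.07% of all genes, 3 members were called: Npc2 and Atp6v1g1 were higher and Ctsh lower in WT cold. For cKO against WT cold, 0 members and 0.0% of all genes were called (limma), 8 members and 1311 genes had an unadjusted p under 0.05, and the paired fit called 0 members and 3.1% of all genes. The largest such change among pump subunits, -1.37 ± 0.55 for Atp6v0e, rests on the few reads given above. With 2 libraries per group, a change that misses the threshold is not shown to be absent.

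Footprints count mRNA under translating ribosomes. The filter of this fit counted input libraries too. Atp6v0e2 and Atp6v1g2, at 0 in every footprint library, were therefore among the members tested but could show no footprint difference. Of 37 members tested, 4 rose and 0 fell in cKO cold against WT cold, beside 5.61% and 1.54% of all genes (7.15% in either direction, limma), with a median of 0.52 beside 0.42. Both cKO libraries lay above WT cold for 21 members and below for 2, against 47.5% and 8.02% of genes. The 4 were Atp6v0d2, Atp6v0a1, Ctsl and Ctsa, each of which rose in input RNA as well. This count was fragile: with median-ratio scaling only Atp6v0d2 passed, and leaving out 1 library gave 0 to 6 calls, with 0 without either WT cold input library, 1 without either cKO input or either WT cold footprint library, and 2 without cKO footprint replicate 1.

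Atp6v0d2 footprints stood at 0 and 4.99 RPKM in WT cold against 72.7 and 35.7 in cKO cold, a rise of 4.41 ± 0.82 (limma adjusted p = 0.0256). Atp6v0a1 stood at 40.8 and 38.9 RPKM in WT cold against 73.6 and 150 in cKO cold (a rise of 1.38 ± 0.32, adjusted p = 0.0397). For both subunits the 2 genotypes were apart, but the cKO replicates lay far apart in opposite order, with ratios of replicate 1 to replicate 2 of 2.04 and 0.491. Atp6v0d1 footprints stood at 167 and 144 RPKM in WT cold against 194 and 263 in cKO cold (0.54 ± 0.24, limma adjusted p = 0.169), so that Atp6v0d2 made up 27.3% and 11.9% of d subunit footprints in cKO cold, against 0.0% and 3.35% in WT cold.

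Ctsl footprints stood at 448 and 431 RPKM in WT cold against 1145 and 771 in cKO cold, a rise of 1.09 ± 0.25 (limma adjusted p = 0.0397). Ctsa stood at 143 and 149 RPKM in WT cold against 270 and 272 in cKO cold, a rise of 0.89 ± 0.21 (adjusted p = 0.0411). Groups of both were apart. Ctsb, at 1952 and 1900 RPKM in WT cold against 3753 and 3783 in cKO cold, came close (0.97 ± 0.26, adjusted p = 0.0541), as did Atp6v0b (0.92 ± 0.25, adjusted p = 0.0571) and Ctsk (1.69 ± 0.48, adjusted p = 0.0638).

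Ctss footprints went from 173 and 182 RPKM to 697 and 343 without passing (1.45 ± 0.47, limma adjusted p = 0.0851). Npc2 stood at 1153 and 1255 RPKM in WT cold against 1019 and 4972 in cKO cold, so that cKO replicate 2 alone was high and no difference was called (0.90 ± 0.58). Ctsd, at 2227 and 2005 against 1697 and 3017 RPKM, overlapped. Atp6v0e2 and Atp6v1g2 were listed at 0 in all 4 footprint libraries, so their change in footprints relative to RNA was only their RNA change with its sign turned.

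Footprints of a gene cannot be compared in level with its input here, because the deposited footprint values use other gene lengths, so only changes were compared. No call was made for a change in footprints relative to RNA: 0 of 37 members and 0.0% of all genes were called (limma), with an unadjusted p under 0.05 for 2 members and 459 genes. These 2 were Atp6v0e (-1.76 ± 0.53) and Lipa (-0.97 ± 0.38). Lipa stood at 318 and 236 footprint RPKM in WT cold against 305 and 276 in cKO cold, while its RNA rose. Atp6v0e footprints stood at 568 and 371 RPKM in WT cold against 290 and 536 in cKO cold, where its RNA rose too. With 2 libraries per group, the absence of calls does not show that footprints followed RNA.

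Cell markers differed between the assays as well. B cell markers, of which 5 of 8 were at 0 in each WT cold input library, were all above 0 in the 4 footprint libraries, with sums from 193 to 646 RPKM, and Ctsw stood at 12.6 and 5.18 footprint RPKM in WT cold. The macrophage marker sum was 3641 and 4399 in WT cold against 10022 and 5383 in cKO cold footprints, where 6 of 19 markers rose beside 5.61% of all genes (limma), or 1 of 19 with median-ratio scaling. Their part in the footprint results was not tested.

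**Figure D4:**
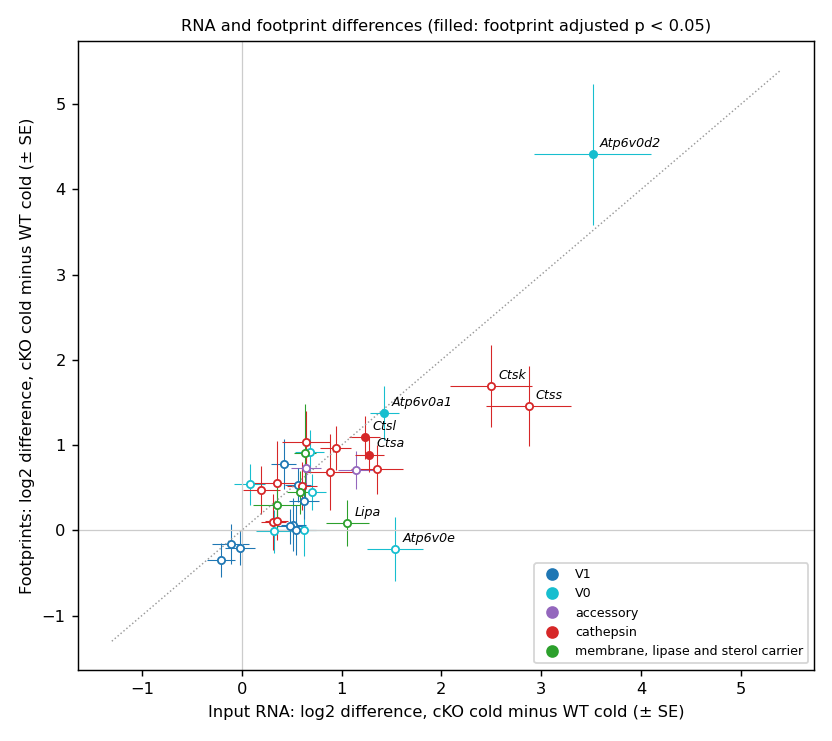
Log2 difference of RPKM + 1, cKO cold minus WT cold, in input RNA (x axis) and in footprints (y axis) for the members tested in both, with bars ± SE (2 libraries per group), coloured by role; filled points passed in footprints (limma adjusted p under 0.05) and the dotted line marks equal differences. Atp6v0d2 lies farthest out on both axes (3.52 and 4.41), while Lipa and Atp6v0e have RNA differences of 1.06 and 1.54 and footprint differences of 0.08 and -0.22.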

How the data were processed

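The authors deposited 1 matrix of RPKM values for 17883 genes in 16 libraries; HISAT2 and mm10 come from the submitters' processing notes, which name no version, and the counting tool, annotation and strand setting are not given in the sources used here. RNA was isolated with Trizol and libraries were made with a small RNA kit, per the labels' protocols. All value columns were used and 0 left out. Whole reads were recovered from the RPKM (100.0% of 17883 genes whole within 0.001 read plus 3e-08 of the reads); footprint reads could be a multiple of those recovered, so the totals given for them are minima. limma 3.58.1 (R 4.3.3; lmFit, eBayes with trend, two-sided) tested log2(RPKM + 1) of genes that reached 1 RPKM in 2 or more libraries of a fit, with p-values adjusted over all genes (Benjamini-Hochberg, threshold 0.05). Fits used the 6 input libraries, the 12 input and m6A libraries, or the 8 cold input and footprint libraries; changes of m6A or footprints over RNA are interaction terms. Differences are on the log2(RPKM + 1) scale, which understates those of low genes, with n = 2 libraries per group. The scripts were tested on simulated data. Python 3.11.15 drew the figures.

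Libraries of the same condition and number deviated together: over 9192 genes the correlation of what remained after subtracting group means was 0.3, 0.648 and 0.477 for input with m6A and 0.318 and 0.316 for input with footprints, against -0.095 to 0.081 across conditions. Numbers were therefore read as pairs inside a condition, a choice made from the data, and the paired (replicate block) fit is given where it changed a call.

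Values in every library are given for up to 10 called members with the largest difference in each RNA and footprint comparison, up to 6 in each m6A comparison, pump subunits with paralogues, Lamp1, Lamp2, Lipa, Npc2, Atp6ap1 and Atp6ap2; up to 4 genes of each list may be named. The lists hold other lysosomal genes, regulators, assembly factors, inhibitors, sorting genes and cell type markers. The members and lists were chosen with earlier results of these data known. Alternatives were pseudocount 0.1, no filter, 2 other scalings, the replicate block, 1 fit of all 16 libraries, and each library left out.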

Additional observations from a re-analysis of the deposited data

Results flagged for a closer look

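In the paired fit, the change of m6A over RNA from WT RT to WT cold passed the test for 3 members that did not pass without the pairs. The paired fit called 2.07% of all genes (270 of 13062) and the unpaired fit 0.0612%. Npc2 changed by 0.66 ± 0.10 (log2, SE, limma adjusted p = 0.0286, against 0.124 without pairs), from -0.93 and -0.96 in WT RT to -0.33 and -0.23 in WT cold. Atp6v1g1 changed by 0.89 ± 0.17 (adjusted p = 0.0434, against 0.14), from -1.09 and -1.04 to -0.39 and 0.03. Ctsh changed by -0.73 ± 0.13 (adjusted p = 0.0402, against 0.564), from -0.31 and -0.36 to -0.93 and -1.20. For each of the 3 the WT RT and WT cold pairs did not overlap, which adds no support, since they were picked from these values. Pairs of members that were not called, such as Lamp1, Lamp2 and Lipa, did not overlap either, and the share over all genes was not counted. Temperature and library code series cannot be told apart here.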

How the results depend on the processing

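Under median-ratio scaling 4 members reversed: the cold differences of Atp6ap1, Atp6v0b and Atp6v0c became 0.11, 0.25 and 0.11, and the cKO difference of Atp6v1f became -0.0613. The count of members called in cKO against WT cold RNA was 7 with that scaling and 14 when scaled outside mitochondrial mRNAs, Lars2 and Gm20594, in place of 23. The footprint count of 4 was 2 with a pseudocount of 0.1, 1 with no filter, with either other scaling, and 14 in 1 fit of all 16 libraries. Leaving out 1 library gave 10 to 20 calls in the cold, 13 to 18 in cKO, 7 to 20 in cKO against WT RT, 24 to 29, 16 to 27 and 22 to 28 for m6A over RNA in WT RT, WT cold and cKO cold, 0 to 6 in footprints and 0 for each of the 3 changes. There the lone library of a group is assumed to vary like the others. The causes were not tested, beyond the smaller number of libraries in these fits.

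With the replicate block the count of the cold change of m6A over RNA was 3 in place of 0. A block by number alone, added after seeing the data because blocks within a condition leave no footprint difference to estimate, called Ctsk besides the same 4 members in footprints (5 calls). In input RNA, where numbers are not shown to pair conditions, the block gave 18, 21 and 17 calls in place of 18, 23 and 18.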
